A study of Mus musculus with 32 samples.

Results

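Glutathione S-transferases (GST, with the membrane-bound MGST), UDP-glucuronosyltransferases (UGT) and sulfotransferases (SULT) were examined in mouse kidney tissue, through the measured genes whose symbols name these families. Of 22180 genes with a feature of their own on the array, 53 were members, comprising 21 GST and MGST genes, 11 UGT genes and 21 SULT genes. Each was read by a single feature. A further 14 symbols of these families, among them Gsta1, Gsta2, Gstz1 and the Ugt1a genes, lay only on features that name several genes and were not analysed here. These enzymes attach glutathione, a sugar such as glucuronic acid, or sulfate to drugs, bile acids, steroids and reactive lipids, which makes them more water soluble and lets transporters carry them into urine or bile. In the kidney many of them are enzymes of the proximal tubule, the segment that also takes up organic anions from blood. GST enzymes draw on glutathione, UGT enzymes on UDP-sugars, and SULT enzymes on the sulfate donor PAPS.

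The mice were males of strain 129 and came in 4 groups of 8: Col4a3+/+ (WT) and Col4a3-/- (KO) at 4 weeks of age, and the same genotypes at 7 weeks, the WT animals being littermate controls. Col4a3 encodes a chain of the type IV collagen of the glomerular basement membrane, and its loss in mice is a model of Alport syndrome, a progressive kidney disease. The allele is missing in all cells of the animal, with no cell type singled out, and one sex and one strain were studied. Kidney RNA from each of the 32 mice went to its own Affymetrix Mouse Gene 2.0 ST array, and values are log2 signals, so that a difference of 1 is a doubling. The number of arrays limits the precision. Arrays of a group correlated at 0.965 to 0.995. Col4a3 signal in KO mice lay below that in WT mice of the same age in every animal. KO mouse 4 at 4 weeks had the lowest array weight, 0.337, and was the lowest mouse of its group for 21 of the 53 members. At 7 weeks the array median was 0.114 higher in KO than in WT mice.

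The first question was which conjugating enzymes differed between KO and WT kidney at 7 weeks. At that age 16 members were lower in KO mice and 5 were higher at an adjusted p below 0.05 in limma, a linear model test across all genes. Where genotypes are compared, genes said to fall or rise were lower or higher in KO than in WT mice. Those words do not mean a change with age there. The 16 lower members made up 30.2% of the 53, against 16.7% of all genes lower, and the 5 higher ones 9.43%, against 15.6% of all genes higher. The median difference over the 53 members was -0.20, beside -0.06 over all genes, and 40 of the 53 differences (75.5%) were below 0, beside 61.5% of all genes. The UGT family was one-sided: its 11 differences were all negative, with a median of -0.42, and 7 genes fell while 0 rose. Of the 11, Ugt2b1, Ugt2b35, Ugt2b36, Ugt2b38 and Ugt2b5 were dim, with mean signals of 2.83 to 4.34 in WT mice at 7 weeks. Ugt2a3 averaged 6.31 in that group and 4.91 to 5.15 in the other groups. The median signal over all genes was 6.27, and the deposited values carry no detection call. Among GST and MGST genes 4 fell and 3 rose, and among SULT genes 5 fell and 2 rose. With arrays centred on their medians the members gave 27 lower and 5 higher, and all genes 37.5% lower and 11.6% higher. Centring lowers every KO minus WT difference at 7 weeks by the same 0.114, so it could not change the sign of a negative one. Under quantile normalization no UGT difference changed sign. Of the 24 members at or above the median signal of all genes, 54.2% passed in either direction, beside 45.6% of all such genes, and of the 29 dimmer members 27.6%, beside 19% of dimmer genes. In bulk tissue, fewer cells of a type and less RNA per cell cannot be told apart, which holds for every comparison here.

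**Figure D1:**
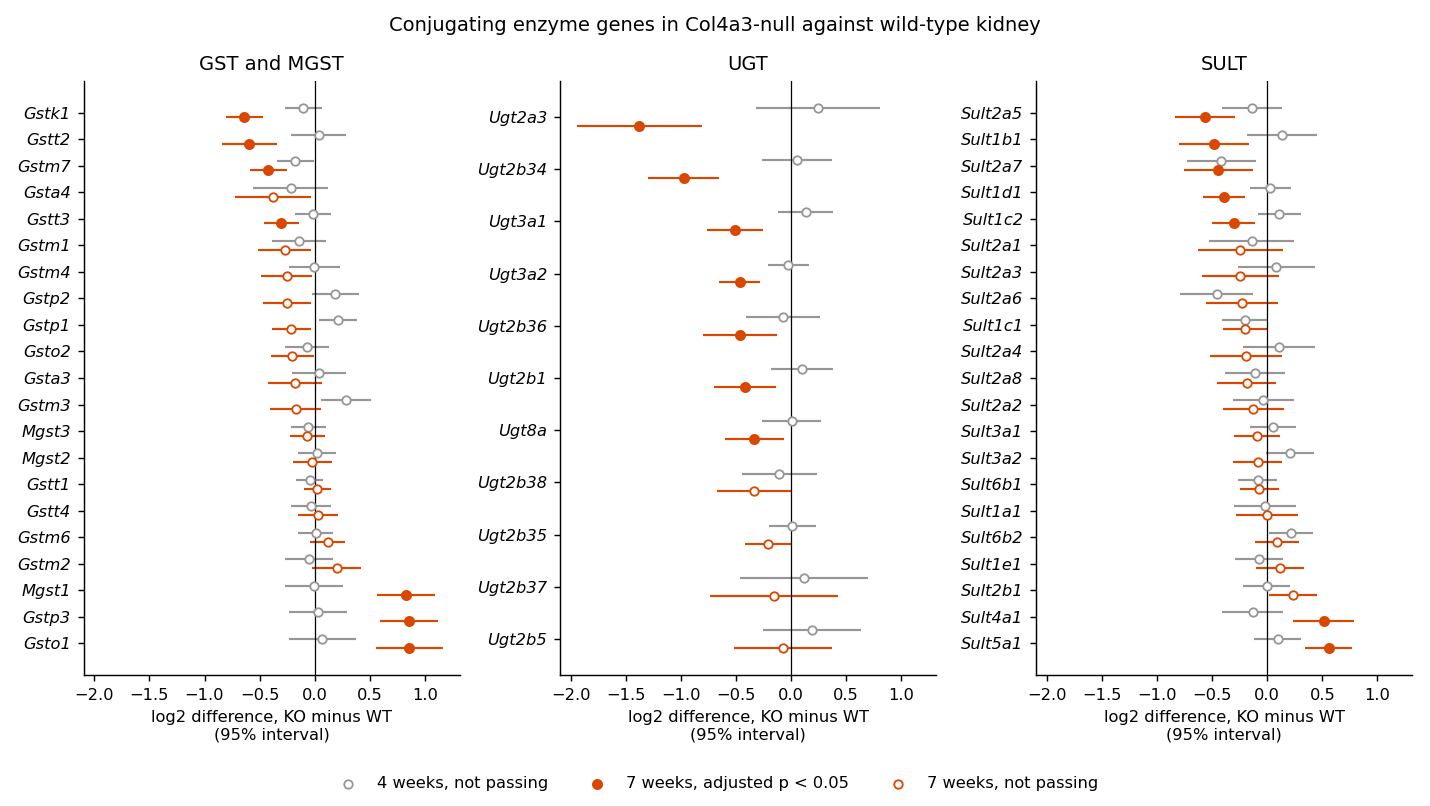
Log2 difference between KO and WT mice (horizontal axis, with the 95% interval) for each of the 53 members, at 4 weeks in grey and 7 weeks in orange, with filled points for an adjusted p below 0.05. All 11 UGT differences at 7 weeks lie left of 0, while Mgst1, Gstp3, Gsto1, Sult4a1 and Sult5a1 stand apart on the right, and no point at 4 weeks is filled.

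Ugt2a3, a UGT of the family that glucuronidates steroids and bile acids, had the largest difference and was lower in KO mice. In WT mice at 7 weeks its log2 signal ran from 5.92 through a median of 6.29 to 6.60, and in KO mice from 4.09 through 4.83 to 6.13. Of the 8 KO mice, 7 lay below every WT mouse, and the remaining one, mouse 5, was inside the WT range. The difference was -1.38 ± 0.28 (SE, n = 8 per group, 2.60-fold, adjusted p = 0.000182). At 4 weeks the same gene spread from 3.29 to 5.78 in WT and from 4.64 to 5.64 in KO mice, so that the KO range lay inside the WT range.

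Ugt2b34, a UGT2B enzyme, followed with full separation of the genotypes. Its signal was 9.05 to 9.41 in WT mice at 7 weeks, with a median of 9.22, and 7.53 to 8.81 in KO mice, with a median of 8.40. No KO mouse reached the lowest WT mouse, and the difference was -0.97 ± 0.16 (1.96-fold, adjusted p = 8.88e-06). The KO values themselves parted, with mice 1, 4, 6 and 8 at 8.04 or lower and the other 4 at 8.77 or higher. Groups of KO and WT mice that did not overlap at 7 weeks were found for 4 of the 53 members, Ugt2b34, Gstk1, Gstp3 and Mgst1, and for 13% of all genes.

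Both UGT3A enzymes, which transfer sugars other than glucuronic acid such as N-acetylglucosamine or glucose, were lower in KO mice. Ugt3a1 spanned 11.36 to 11.71 in WT mice around a median of 11.52, and 10.48 to 11.60 in KO mice around 11.07, and 6 KO mice lay below all WT mice. Its difference was -0.51 ± 0.12 (adjusted p = 0.00147). Ugt3a2 spanned 12.35 to 12.61 in WT mice (median 12.58) and 11.47 to 12.41 in KO mice (median 12.11). Here 5 KO mice were below the WT range, and the difference was -0.47 ± 0.092 (adjusted p = 0.000141). The WT mice were tightly grouped for both genes, while KO mice 1, 4, 6 and 8 were the lowest 4 for each.

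The other UGT genes that fell did so by less. Ugt2b36 had a difference of -0.46 ± 0.16 (adjusted p = 0.0287), with WT mice at 3.05 to 3.69 (median 3.24) and KO mice at 2.57 to 3.34 (median 2.85). Here 7 of 8 KO mice were below the WT range, although the call was lost without WT mouse 6 or 8 or KO mouse 5 or 7. Ugt2b1 differed by -0.42 ± 0.14 (adjusted p = 0.0185) and 3 KO mice were below the WT range. Ugt8a, which makes galactosylceramide, a lipid of myelin and of kidney epithelium, differed by -0.33 ± 0.13 at an adjusted p of 0.0499. This last call was lost in 11 of the 16 fits that left out 1 mouse, and held only without WT mouse 4 or 8 or KO mouse 1, 2 or 5. Quantile normalization also ended the calls of Ugt2b1, Ugt2b36 and Ugt8a, with adjusted p of 0.089, 0.101 and 0.0756. Ugt2b1 and Ugt2b36 also lay in the lower range of array signal.

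Promoter windows, 250 bases before to 50 after each annotated start in RefSeq (GRCm38.p6), were available for 46 of the 53 members. They are shown for 3 of the genes that fell, because each holds GTTAAT, part of the palindromic site bound by HNF1 factors of the tubule and liver. Each is printed 5′ to 3′ on the strand of its gene, with GTTAAT or its reverse complement ATTAAC in capitals.
Ugt2a3, chr5:87337146-87337445, minus strand: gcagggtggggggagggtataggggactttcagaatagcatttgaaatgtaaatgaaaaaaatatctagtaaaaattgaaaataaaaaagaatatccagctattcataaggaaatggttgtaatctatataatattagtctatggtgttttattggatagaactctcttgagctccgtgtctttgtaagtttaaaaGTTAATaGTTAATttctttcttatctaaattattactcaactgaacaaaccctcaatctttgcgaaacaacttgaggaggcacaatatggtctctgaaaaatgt
Ugt3a1, chr15:9279579-9279878, plus strand: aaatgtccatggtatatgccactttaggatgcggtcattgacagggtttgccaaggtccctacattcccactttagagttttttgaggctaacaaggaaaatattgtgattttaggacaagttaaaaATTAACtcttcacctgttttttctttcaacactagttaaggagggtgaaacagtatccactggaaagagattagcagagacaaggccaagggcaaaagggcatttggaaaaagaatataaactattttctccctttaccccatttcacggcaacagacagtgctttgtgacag
Sult1d1, chr5:87568957-87569256, minus strand: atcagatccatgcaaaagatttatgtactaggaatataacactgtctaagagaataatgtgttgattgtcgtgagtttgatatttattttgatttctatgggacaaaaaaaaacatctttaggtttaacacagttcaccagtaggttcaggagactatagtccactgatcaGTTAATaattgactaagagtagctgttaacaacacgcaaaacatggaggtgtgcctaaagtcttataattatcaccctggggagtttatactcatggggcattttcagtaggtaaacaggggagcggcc
The first bases of the motif lay at -54 and -47 from the start base in Ugt2a3, at -123 in Ugt3a1 and at -79 in Sult1d1. On either strand GTTAAT was present for 10 of the 46 members with a window, or 21.7%, and for 8.24% of all 27025 genes with one. It was present for 4 of the 13 such members that fell at 7 weeks, for 0 of the 4 that rose and for 6 of the 29 that did not pass, so it was not limited to genes that fell. A match of letters is a description of the sequence and not a measured binding site.

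Among the GST genes the clearest fall was in Gstk1, the kappa class enzyme found in mitochondria and peroxisomes. WT mice at 7 weeks lay between 11.87 and 12.11 (median 12.01) and KO mice between 11.11 and 11.68 (median 11.36). The groups did not overlap, and the difference was -0.64 ± 0.083 (1.56-fold, adjusted p = 1.96e-07). Gstt2, a theta class enzyme, had WT values from 9.47 to 10.48 (median 9.96) and KO values from 8.96 to 9.74 (median 9.29). Of the KO mice 5 were below the WT range and 3 lay above the lowest WT mouse, and the difference was -0.60 ± 0.12 (adjusted p = 0.000235). Gstm7, a mu class enzyme, fell from a WT median of 8.14 (7.90 to 8.51) to a KO median of 7.69 (7.59 to 8.07), a difference of -0.42 ± 0.083 (adjusted p = 0.000139). Gstt3 differed by -0.30 ± 0.079 (adjusted p = 0.00304), and 7 of 8 KO mice lay below the WT range.

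The 3 GST genes that rose came from 3 different classes. Gsto1, the omega class enzyme that reduces dehydroascorbate and methylated arsenic, ranged from 8.14 to 8.64 (median 8.27) in WT and from 8.50 to 9.67 (median 9.18) in KO mice. All KO mice except mouse 5 were above the WT range, and the difference was 0.86 ± 0.15 (1.81-fold, adjusted p = 2.52e-05). Gstp3, a pi class gene, ranged from 5.31 to 6.36 (median 6.15) in WT and from 6.50 to 7.27 (median 6.88) in KO mice. Its groups did not overlap, and the difference was 0.86 ± 0.13 (1.81-fold, adjusted p = 2.66e-06). The neighbouring pi class genes Gstp1 and Gstp2 did not rise with it, with differences of -0.21 ± 0.086 (adjusted p = 0.0582) and -0.25 ± 0.11 (adjusted p = 0.0672).

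Mgst1, a microsomal enzyme that conjugates glutathione and reduces lipid peroxides, ranged from 6.60 to 7.05 (median 6.79) in WT and from 7.21 to 8.09 (median 7.57) in KO mice at 7 weeks. Every KO mouse was above every WT mouse, and the difference was 0.83 ± 0.13 (1.78-fold, adjusted p = 4.57e-06). The related Mgst2 and Mgst3 had differences of -0.02 and -0.07 and did not pass. Mgst1 was the riser whose promoter window held the core of the antioxidant response element, TGACNNNGC, the sequence bound by NRF2, so its window is printed with the match, here as its reverse complement, in capitals.
Mgst1, chr6:138140277-138140576, plus strand: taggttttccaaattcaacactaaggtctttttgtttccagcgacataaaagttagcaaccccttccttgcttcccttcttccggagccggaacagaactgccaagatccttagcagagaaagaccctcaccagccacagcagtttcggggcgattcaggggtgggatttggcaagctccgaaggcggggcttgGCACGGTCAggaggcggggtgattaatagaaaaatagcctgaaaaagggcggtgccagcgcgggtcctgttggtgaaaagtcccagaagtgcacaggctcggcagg
The match began at -56. The element was found on either strand for 3 of the 46 members with a window (Mgst1, Gsta3 and Gstm7), or 6.52%, and for 14% of all genes. Of these 3, Mgst1 rose, Gstm7 fell and Gsta3 did not pass at 7 weeks. The core of the xenobiotic response element, GCGTG, bound by the aryl hydrocarbon receptor, was present for 8 of the 46 members and for 35.2% of all genes. In the members' windows no match of one motif overlapped a match of another.

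The 5 SULT genes that fell were 3 of the SULT1 and 2 of the SULT2 family. Sult1d1, which sulfates catecholamines and phenols, ranged from 11.97 to 12.35 (median 12.20) in WT and from 11.46 to 12.07 (median 11.76) in KO mice, and 6 KO mice were below the WT range. Its difference was -0.39 ± 0.092 (adjusted p = 0.00108). Sult1b1, a thyroid hormone and phenol sulfotransferase, ranged from 5.35 to 5.82 (median 5.54) in WT and from 4.62 to 5.41 (median 5.07) in KO mice, with 6 KO mice below the WT range and a difference of -0.48 ± 0.16 (adjusted p = 0.0154). Sult1c2 showed a wider KO spread, 10.60 to 11.43 against 11.22 to 11.49 in WT mice, and a difference of -0.30 ± 0.096 (adjusted p = 0.0137). That spread left 3 KO mice inside the WT range, and quantile normalization ended this call (adjusted p = 0.107).

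Of the 9 SULT2 genes, which act on steroids and bile acids, 8 had differences below 0 and 2 passed. Among all genes 61.5% were below 0 and 16.7% were lower. At 4 weeks 7 of the 9 SULT2 differences were below 0. Sult2a5 ranged from 4.49 to 5.14 (median 4.77) in WT and from 3.78 to 4.51 (median 4.23) in KO mice, with 7 KO mice below the WT range and a difference of -0.57 ± 0.13 (adjusted p = 0.00102). Sult2a7 ranged from 2.02 to 3.51 (median 2.58) in WT and from 1.87 to 2.47 (median 2.22) in KO mice, a difference of -0.45 ± 0.15 (adjusted p = 0.0241). Its groups overlapped for 5 KO mice, and leaving out WT mouse 6, the highest at 3.51, gave an adjusted p above the threshold, as did leaving out KO mouse 7 or 8 (up to 0.0732) or quantile normalization (0.072). Both genes lay in the lower range of array signal, and the deposited values carry no detection call. Sult2a7 was already at -0.42 ± 0.15 at 4 weeks, without passing.

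The SULT genes that rose were Sult5a1 and Sult4a1. Sult5a1 ranged from 4.80 to 5.64 (median 5.17) in WT and from 5.44 to 6.17 (median 5.71) in KO mice, and 5 KO mice exceeded the WT range. The difference was 0.56 ± 0.11 (adjusted p = 7.95e-05). Sult4a1, known mainly from brain and without a well-defined substrate, ranged from 4.22 to 4.80 (median 4.46) in WT and from 4.57 to 5.87 (median 4.92) in KO mice. Again 5 KO mice were above the WT range, mouse 1 farthest, and the difference was 0.51 ± 0.14 (adjusted p = 0.0033). Both genes had group means below the median signal of all genes, 6.27.

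**Figure D2:**
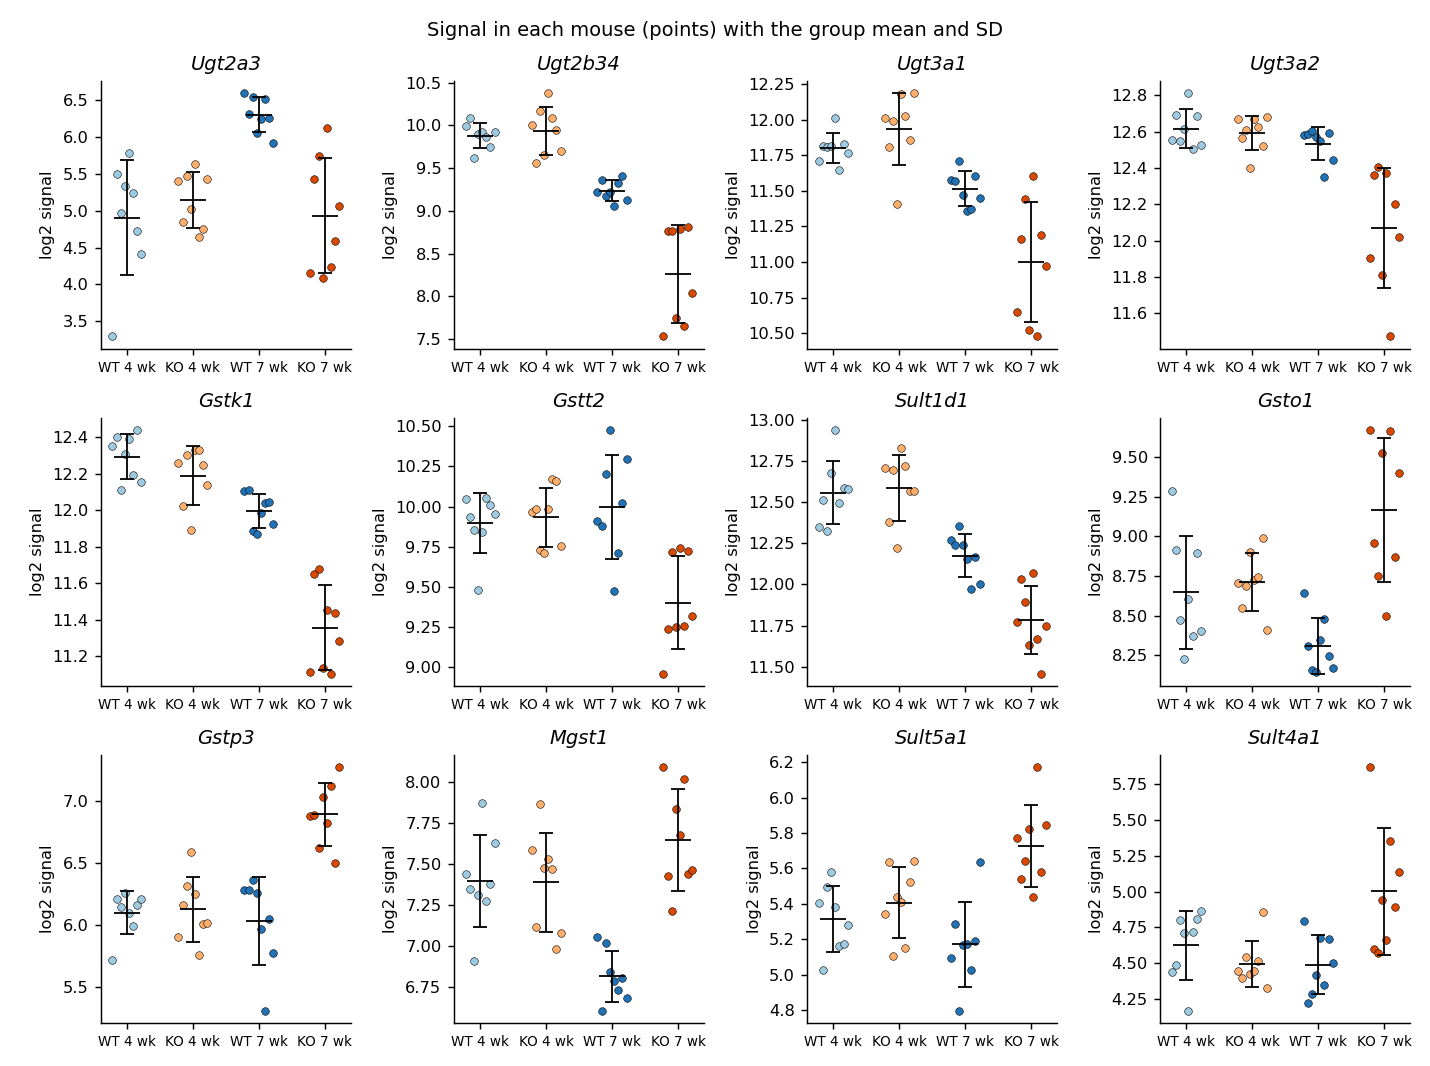
Log2 signal (vertical axes, scaled per gene) of 12 members in each mouse, by genotype and age, with the group mean and SD as bars. In the KO group at 7 weeks Ugt2b34 and Gstk1 lie wholly below, and Gstp3 and Mgst1 wholly above, the WT group of that age, and the KO points of Ugt2b34 form a lower and an upper set of 4.

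At 7 weeks 32 members did not pass. The largest differences among them were Gsta4, the alpha class enzyme for the lipid peroxidation product 4-hydroxynonenal (-0.38 ± 0.17, adjusted p = 0.0833), Ugt2b38 (-0.33 ± 0.17, adjusted p = 0.133) and Gstm1 (-0.27 ± 0.12, adjusted p = 0.0779). Gsta4 signal was 8.00 to 8.59 in WT and 7.54 to 8.18 in KO mice, with 5 KO mice below the WT range. Gstm4 (-0.25, adjusted p = 0.0898), Gstp2 (-0.25) and Sult2a1 (-0.25, adjusted p = 0.342) followed. Several of these passed under another setting: Gsta4, Gstm1, Gstm4 and Gstp2 each passed with array weights, with the 7-week groups fitted alone and with quantile normalization. In all, 21 members passed in none of the 5 comparisons, among them 11 of the SULT2, SULT3 and SULT6 genes. The share of all genes that passed in none was not counted. Those 11 genes had group means below the median signal of all genes, 6.27. Of all genes that dim 19% passed at 7 weeks, beside 45.6% of brighter ones.

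At 4 weeks, the comparison that asks what differs early, 0 members were higher and 0 lower in KO mice by limma. All genes gave 0.0316% higher and 0.00902% lower. An unadjusted limma p below 0.05 was found for 7 of the 53 members, beside 2044 of all 22180 genes. The median difference over the 53 members was -0.0026. The largest were Sult2a6 (-0.46 ± 0.16, adjusted p = 0.397), Sult2a7 (-0.42 ± 0.15, adjusted p = 0.413) and Gstm3 (0.29 ± 0.11, adjusted p = 0.432). Of the 11 UGT genes, 8 had differences above 0 at this age, as did 10719 of all 22180 genes. For 0 of the 11 was the unadjusted limma p below 0.05. KO and WT mice overlapped for every member, and they did not for 0.0496% of all genes. These intervals bound the early differences: for Ugt2b34 the 95% interval at 4 weeks ran from -0.27 to 0.38, which does not contain the -0.97 seen at 7 weeks. For Gstk1 it ran from -0.27 to 0.064.

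Whether the genotype difference itself changed between the ages was tested as an interaction. It moved down for 12 members and up for 5, beside 7.24% of all genes down and 9.8% up. With arrays centred on their medians 16 members moved down and 4 up, beside 15.1% and 7.54% of all genes. Of these 17 members, 14 had also passed at 7 weeks, a comparison that shares its mice with this one. The downward shift was -1.62 ± 0.39 for Ugt2a3 (adjusted p = 0.00362), -1.03 ± 0.22 for Ugt2b34 (adjusted p = 0.00131), -0.64 ± 0.18 for Ugt3a1 and -0.63 ± 0.17 for Gstt2. Sult1b1 and Gstk1 completed the 6 largest, at -0.62 and -0.54. Upward shifts were 0.84 ± 0.18 for Mgst1 (adjusted p = 0.00137), 0.83 ± 0.18 for Gstp3, 0.79 ± 0.21 for Gsto1, 0.65 ± 0.19 for Sult4a1 and 0.46 ± 0.15 for Sult5a1.

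Gstp1, Gstp2 and Gstm3 passed this test without passing at either age. Gstp1, a pi class enzyme that conjugates electrophiles, had WT medians of 10.08 at 4 weeks and 10.37 at 7 weeks, and KO medians of 10.25 and 10.15. Its KO minus WT difference was 0.21 ± 0.086 at 4 weeks and -0.21 ± 0.086 at 7 weeks, an interaction of -0.42 ± 0.12 (adjusted p = 0.0133). Gstp2 gave -0.44 ± 0.15 (adjusted p = 0.0391) and Gstm3 -0.46 ± 0.16 (adjusted p = 0.042), with the groups overlapping at both ages. Several interaction calls were lost when 1 mouse was left out or when the scaling was changed. Leaving out 1 mouse at a time, 32 fits in all, ended the call of Gstp2 in 11, of Gstm3 in 16 and of Sult1b1 in 22. The call of Sult1c2 was lost without mouse 4 of WT at 4 weeks, mouse 3 of WT at 7 weeks, mouse 1 of KO at 4 weeks, or mouse 1, 4, 6 or 8 of KO at 7 weeks. That of Sult5a1 was lost without mouse 3 of WT at 7 weeks or mouse 6 of either KO group, and with arrays centred (adjusted p = 0.0672). Quantile normalization ended the interaction calls of Ugt3a2 (adjusted p = 0.0502), Sult1d1 (0.0965), Sult1c2 (0.118), Sult1b1 (0.0632) and Gstm3 (0.0772).

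In WT mice 4 members were higher and 7 lower at 7 weeks than at 4 weeks, beside 15.4% and 14.1% of all genes. Ugt2a3 had the largest rise, from a median of 5.11 to 6.29, a difference of 1.40 ± 0.28 (2.64-fold, adjusted p = 0.000233), and every WT mouse at 7 weeks lay above every one at 4 weeks. Gstt3 rose from 8.12 to 8.39 at 4 weeks to 8.94 to 9.25 at 7 weeks, by 0.87 ± 0.079 (adjusted p = 4.95e-09), also without overlap. Gstm1 rose by 0.46 and Gstp1 by 0.33. Of the 18 proximal tubule markers 9 were higher and 1 lower in WT mice over the same weeks, and their part was not tested. Gsta4 fell by 0.69 ± 0.17 (adjusted p = 0.00179), from 8.42 to 9.99 at 4 weeks to 8.00 to 8.59. Ugt2b34 fell by 0.64 ± 0.16, Mgst1 by 0.58 ± 0.13, Mgst3 by 0.41 ± 0.079, Sult1d1 by 0.38 ± 0.092, Sult1e1, the estrogen sulfotransferase, by 0.35 ± 0.11, and Gstk1 by 0.30 ± 0.083. Sult1e1 was dim, with WT means of 3.73 at 4 weeks and 3.38 at 7 weeks.

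In KO mice 8 members were higher and 16 lower at 7 weeks than at 4 weeks, beside 21.4% and 21.3% of all genes. With arrays centred these were 6 and 22, beside 17.6% and 32.6%. Cell markers moved over the same weeks: all 12 macrophage, 10 injury and 10 fibroblast markers were higher in KO mice at 7 weeks than at 4, and of 18 proximal tubule markers 9 were lower and 2 higher. Their part in the age differences of the conjugating enzymes was not tested. Ugt2b34 fell by 1.67 ± 0.16 (3.18-fold, adjusted p = 6.62e-10), from 9.55 to 10.38 at 4 weeks to 7.53 to 8.81 at 7 weeks. Sult1b1 went from 5.45 to 6.83 to 4.62 to 5.41, and Gstk1 from 11.89 to 12.33 to 11.11 to 11.68. For all 3 genes no KO mouse of 7 weeks reached the lowest of 4 weeks. Sult1b1 fell by 0.96 ± 0.16, Ugt3a1 by 0.93 ± 0.12, Gsta4 by 0.85 ± 0.17, Gstk1 by 0.83 ± 0.083 and Sult1d1 by 0.80 ± 0.092. The risers were led by Gstp3 at 0.77 ± 0.13 (adjusted p = 1.12e-05), Gstt3 at 0.58 ± 0.079, Sult4a1 at 0.51 ± 0.14 and Gsto1 at 0.45 ± 0.15, followed by Gstm2 at 0.34 and Gstm1 at 0.33. The last of these calls was lost with centring (adjusted p = 0.0696), with quantile normalization (0.142) and with array weights (0.0783). Ugt2a3, whose WT mice rose, had KO medians of 5.21 at 4 weeks and 4.83 at 7 weeks and did not pass.

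Set side by side, 7 members passed in the same direction in both genotypes (among them Ugt2b34, Gstk1, Gsta4 and Gstt3), 17 passed in KO mice alone and 4 in WT mice alone. Such a split does not test a difference between genotypes, which the interaction above does. The same split was not counted over all genes. Of all genes more passed with age in KO mice (21.4% higher, 21.3% lower) than in WT mice (15.4% and 14.1%). Over the 53 members the age differences of WT and KO mice, which share no animals, had a Pearson correlation of 0.429 and a Spearman correlation of 0.439, and 32 had the same sign. The points are genes of the same arrays and not independent replicates. Mgst1 combined both courses: its WT median went from 7.36 to 6.79, while its KO median was 7.47 at 4 weeks and 7.57 at 7 weeks.

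**Figure D3:**
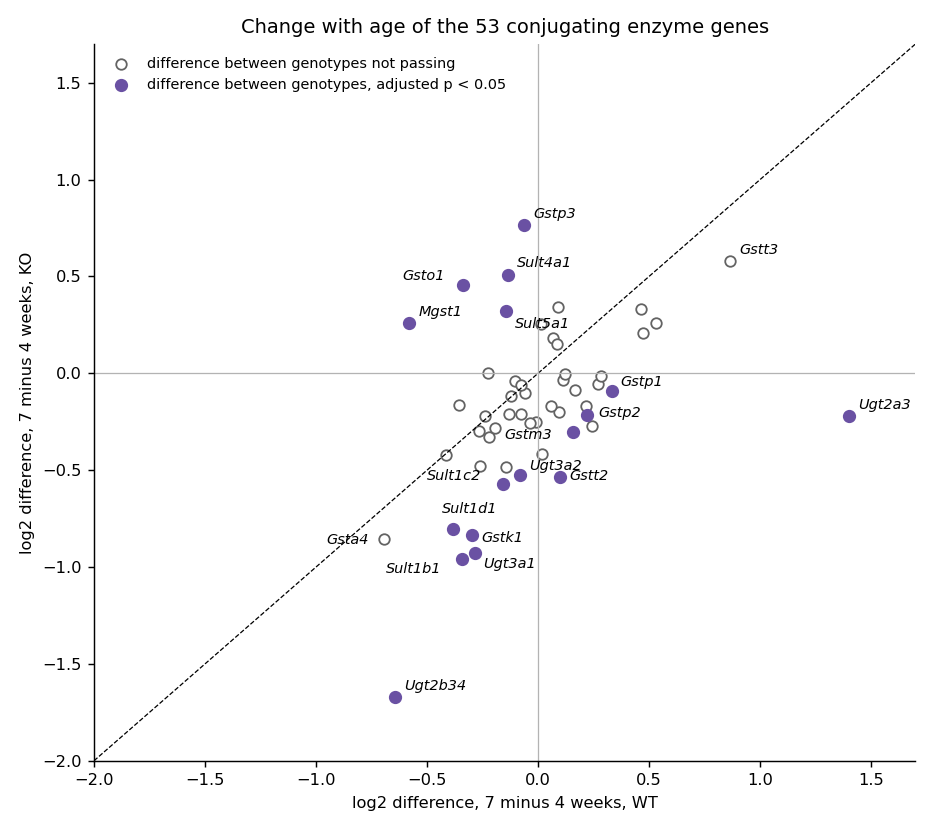
Log2 difference of 7 from 4 weeks of age, for WT animals (horizontal axis) and KO animals (vertical axis), for the 53 members, with filled points where the difference between genotypes passed and a dashed line where both would be equal. Ugt2a3 lies far to the right at 1.40, Ugt2b34 lowest at -1.67, and Mgst1, Gstp3, Gsto1, Sult4a1 and Sult5a1 lie above the line.

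KO mice at 7 weeks were not alike in these genes. For each of the 21 members that passed, the 4 KO mice lying farthest in the direction of the difference were listed, and for 8 members they were mice 1, 4, 6 and 8. These 8 members were Ugt2b34, Ugt3a1, Ugt3a2, Gstk1 and Sult1b1 among those that fell, and Gsto1, Sult4a1 and Sult5a1 among those that rose. Mice 1, 4, 6 and 8 also had the lowest mean signal over 18 proximal tubule markers, at 11.46 or lower against 11.85 or higher in the other 4, and the highest means over the macrophage and tubular injury markers. For other members the order was different: the farthest 4 were mice 2, 3, 6 and 7 for Gstt3 and mice 5, 6, 7 and 8 for Sult2a5. This is a description of single animals, with no test. How often mice 1, 4, 6 and 8 were the farthest over all genes that passed was not counted.

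**Figure D4:**
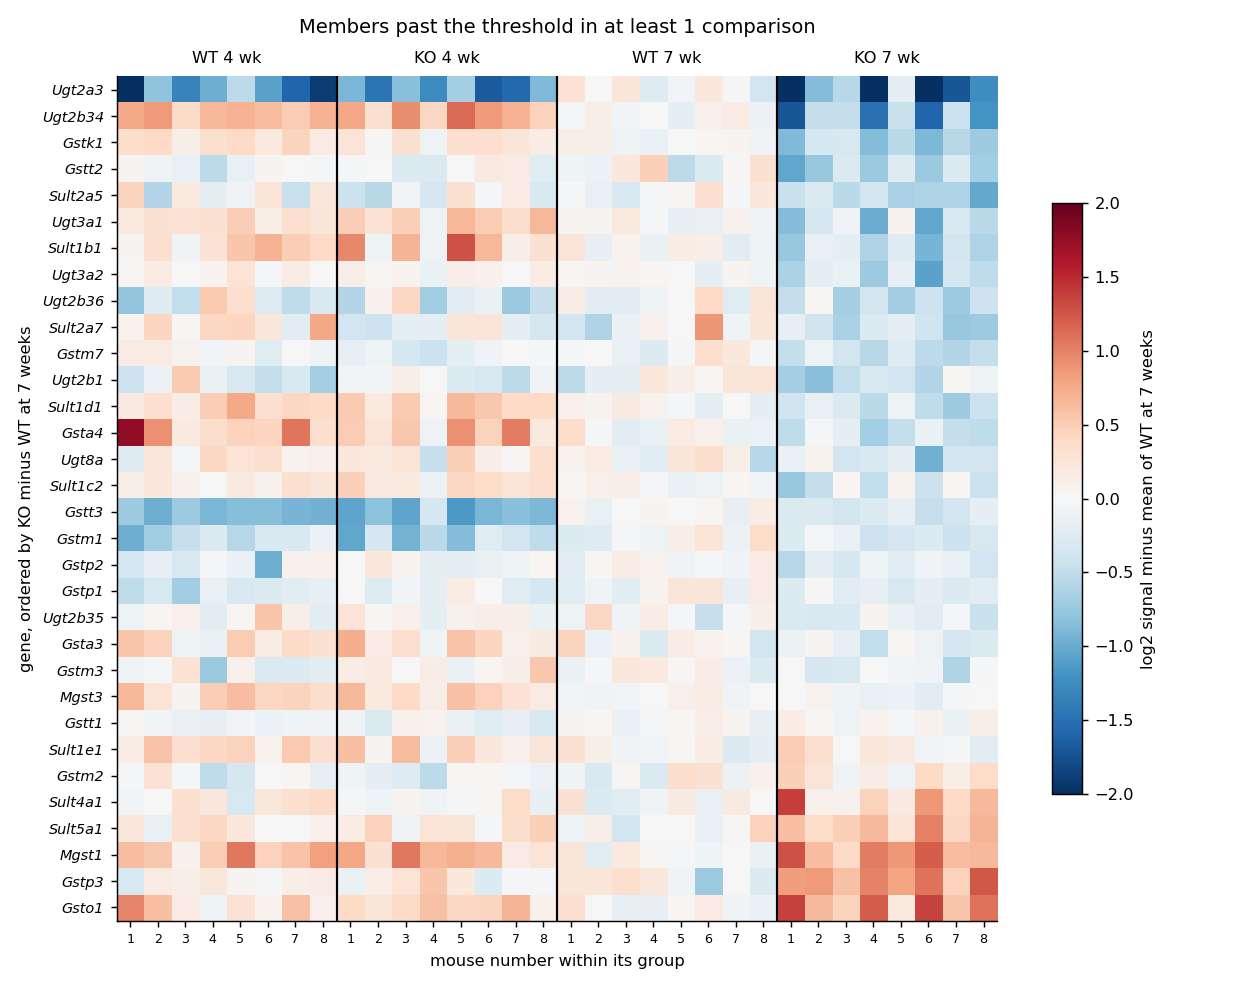
Log2 signal minus the mean of WT mice at 7 weeks (colour, limited to 2 either way) for the 32 members that passed in at least 1 comparison (rows) in each of the 32 mice (columns). Among the KO mice at 7 weeks, mice 1, 4, 6 and 8 carry the deepest colours for Ugt2b34, Ugt3a1, Ugt3a2, Gstk1 and Gsto1. Gstt3 is low in both genotypes at 4 weeks.

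Genes that supply or follow these enzymes were examined through lists chosen with earlier results of these data known. Their counts at 7 weeks stand beside the 15.6% of all genes higher and 16.7% lower. Of 19 measured genes of glutathione supply and recycling, 11 were lower and 2 higher in KO mice at 7 weeks, with a median of -0.27. Those lower included Gss, the glutathione synthase (-0.53 ± 0.11, adjusted p = 0.0002), Cbs and Cth of the pathway that makes cysteine (-0.97 and -0.80), and Nat8 and Acy1, which acetylate and deacetylate cysteine conjugates (-0.60 and -1.11). Those higher were the cystine importer Slc7a11 (1.05 ± 0.15, adjusted p = 9.15e-07) and Ggt5, a gamma-glutamyltransferase (0.46). Gclc, the catalytic subunit of the first step of glutathione synthesis, differed by -0.26 and did not pass (adjusted p = 0.0798).

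On the sulfate side, 9 of 13 genes were lower and 2 higher, with a median of -0.40. Both enzymes that make PAPS fell, Papss1 by 0.68 ± 0.13 and Papss2 by 0.40 ± 0.11, as did Bpnt1, which clears the spent donor (-0.78 ± 0.094). Slc13a1, the sodium-sulfate transporter of the proximal tubule, rose by 0.70 ± 0.087 (adjusted p = 9.6e-08), the opposite direction. Of 10 genes of UDP-glucuronate supply 3 were lower and 3 higher, with a median of -0.16. Ugdh, which oxidises UDP-glucose to UDP-glucuronate, fell by 0.36 ± 0.094, as did Slc35d1, its transporter into the endoplasmic reticulum (-0.39), while Pgm2 (0.74) and Gusb, the lysosomal glucuronidase (0.32), rose.

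Among 10 exporters of conjugates 2 rose and 2 fell, shares near those of all genes. Abcc3, which carries glucuronides across the basolateral membrane, rose by 1.29 ± 0.18 (2.44-fold, adjusted p = 6e-07), and Abcc2, its apical counterpart, differed by -0.24 without passing (adjusted p = 0.118). Of 9 measured enzymes that conjugate through acetyl, methyl or glycine groups 8 fell, including Nat1, Glyat and Hnmt at -0.72, -0.61 and -0.59, while Nnmt, the nicotinamide methyltransferase, rose by 0.91 ± 0.13 (adjusted p = 1.07e-06). Of 13 further redox genes linked to NRF2, 4 were higher and 2 lower, with a median of 0.03. Akr1b8 (1.15), Slc7a11, which stands in the glutathione list too, Hmox1 (0.80) and Srxn1 (0.31) rose and Me1 and Gpx3 fell, whereas Nqo1, a standard NRF2 target, differed by -0.14 and did not pass (adjusted p = 0.436).

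Of 13 measured transcription factors known to act on conjugating enzyme genes, 5 were lower and 3 higher, with a median of -0.12. The nuclear receptors Ppara, Nr1h4, Esr1, Rxra and Hnf4a fell, by 0.73, 0.56, 0.54, 0.50 and 0.47, and Nfe2l2, which encodes NRF2, Nr1i2, the pregnane X receptor, and Ahr rose, by 0.43, 0.36 and 0.27. Their mRNA levels say nothing of their activity. At 4 weeks 0 genes of these 7 lists passed in either direction by limma.

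Markers of cell types moved with the conjugating enzymes at 7 weeks. All 18 measured proximal tubule markers were lower in KO mice, by 0.26 to 1.39 with a median of -0.49, beside the members' median of -0.20 and the UGT median of -0.42. Hnf4a stands both among them and among the transcription factors. Their mean signal per mouse was 12.12 to 12.21 in WT and 10.81 to 12.01 in KO mice. At 4 weeks 0 of the 18 passed by limma, with a median of -0.035. All 12 macrophage and myeloid markers and all 10 tubular injury markers were higher, with medians of 2.36 and 2.31, as were all 10 fibroblast and matrix markers (median 1.64). The mean over the macrophage list was 6.45 to 6.70 in WT and 8.16 to 9.46 in KO mice, and over the injury list 6.88 to 7.16 and 8.72 to 9.92. At 4 weeks the medians of the macrophage, injury and fibroblast lists were 0.36, 0.23 and 0.41, and 1 of these markers passed, the injury gene Lcn2 (1.27 ± 0.25, adjusted p = 0.0342). At 7 weeks, of 12 markers of later nephron segments 6 were lower (list median -0.31), and of 9 T and B cell markers 6 were higher. Endothelial and podocyte genes gave 1 lower of 7, hepatocyte genes 3 lower of 8 (list means of 7.28 to 7.41 in WT and 6.69 to 7.28 in KO mice), and urothelial and adrenal genes 0 of 9. The part of these cell markers in the differences of the conjugating enzymes was not tested.

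**Figure D5:**
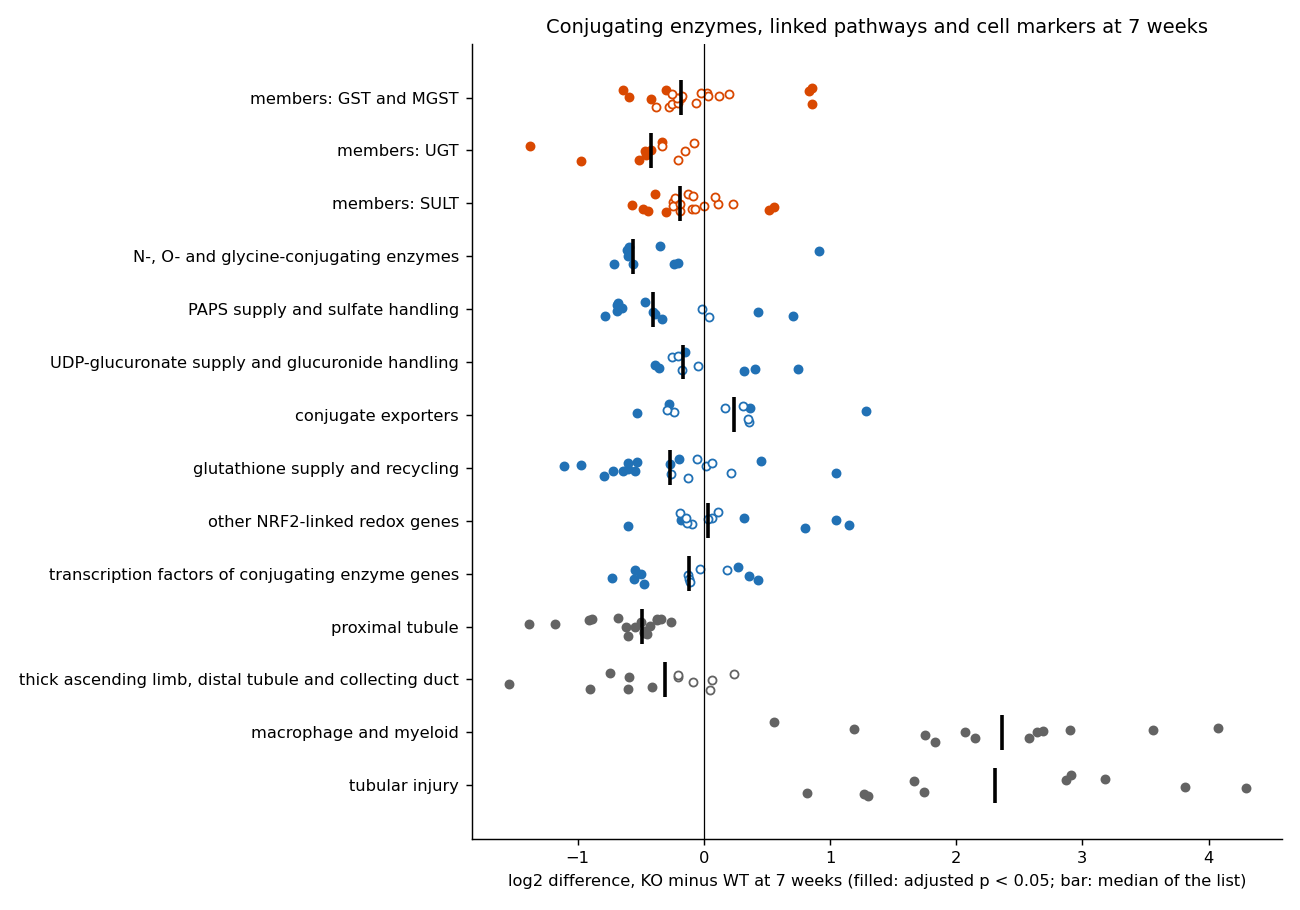
Log2 difference between KO and WT mice at 7 weeks (horizontal axis) for the members by family (orange), the 7 linked pathway lists (blue) and 4 lists of cell markers (grey), 1 point a gene, filled where the adjusted p was below 0.05, with the median as a bar. Medians were -0.42 for UGT genes, -0.40 for PAPS supply and sulfate handling, -0.49 for proximal tubule markers and -0.31 for markers of later nephron segments. The macrophage and injury markers lie far to the right.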

How the data were processed

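The deposited values were gene-level log2 signals that the authors had summarised by RMA in Affymetrix Expression Console, per the labels and the submitters' processing notes, with the version not given in the sources used here. Of 41345 features, 23521 named 1 symbol. The highest-mean feature was kept per symbol, which gave 22180 genes, and members were the symbols beginning Gst, Mgst, Ugt or Sult followed by a class letter, a number or both. The members and lists were chosen with earlier results of these data known. One limma 3.58.1 model (R 4.3.3) held the mean of each of the 4 groups, with 28 residual degrees of freedom. The p-values of each comparison were Benjamini-Hochberg adjusted across 22180 genes, with calls at 0.05, and intervals are 95%. The fit was tested on simulated data. Full values are given for up to 10 called members per direction at 7 weeks, up to 6 in the other comparisons and up to 6 that did not pass. Same-numbered mice did not deviate together (correlations of -0.27 to 0.23), so numbers were not used as pairs. Array signals of close paralogs can mix, and probe sequences were not used here. Promoter windows came from RefSeq.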

Additional observations from a re-analysis of the deposited data

Results flagged for a closer look

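The genotype difference changed between 4 and 7 weeks for 17 members by the interaction test. The KO minus WT difference shifted by -1.62 for Ugt2a3, -1.03 for Ugt2b34, -0.64 for Ugt3a1, -0.63 for Gstt2, -0.62 for Sult1b1, -0.54 for Gstk1, -0.46 for Gstm3, -0.44 for Ugt3a2, -0.44 for Gstp2, -0.42 for Gstp1, -0.42 for Sult1d1 and -0.41 for Sult1c2. Upward shifts were 0.46 for Sult5a1, 0.65 for Sult4a1, 0.79 for Gsto1, 0.83 for Gstp3 and 0.84 for Mgst1.

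Single mice stood apart from their group in 9 of 128 groups of 8 mice, over the 32 members that passed in at least 1 comparison, and chance alone marks about 1 in 20 groups. At 4 weeks these were WT mouse 3 for Ugt2b1 at 4.34, WT mouse 4 for Gstt2 at 9.48, WT mouse 6 for Gstp2 at 7.57 and for Ugt2b35 at 4.43, KO mouse 4 for Gstt3 at 8.76, KO mouse 7 for Sult4a1 at 4.86 and KO mouse 8 for Gstm3 at 5.16. At 7 weeks they were KO mouse 2 for Gstp1 at 10.39 and KO mouse 6 for Ugt8a at 9.20.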

How the results depend on the processing

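No called member reversed its direction under any alternative run. At 7 weeks the count of members lower was 16, and 27 with each array centred on its median. A threshold of at least 1.5-fold gave 3 higher and 4 lower at 7 weeks (all genes 6.83% and 2.92%), 4 and 5 in the interaction (5.79% and 2.29%), 2 and 2 for age in WT (3.28% and 1.79%), and 1 and 6 for age in KO mice (7.9% and 3.65%). Testing the genes at or above the median signal, which holds 24 members, gave 3 higher and 12 lower at 7 weeks (all such genes 22.8% and 26.6%) and 3 and 10 in the interaction (16.1% and 14.4%). Leaving out 1 mouse at a time gave 5 to 6 higher and 13 to 17 lower at 7 weeks, 0 at 4 weeks, 4 to 5 and 8 to 12 in the interaction, 4 to 5 and 7 to 10 in WT, and 7 to 10 and 14 to 17 in KO mice. Of the 21 calls at 7 weeks 18 held in each of these fits, the exceptions being Ugt8a, Ugt2b36 and Sult2a7, as did 12 of 17 in the interaction, 11 of 11 in WT and 20 of 24 in KO mice, where Gstm1, Gstm3, Gstt1 and Ugt2b35 were the exceptions. Gstm1 was lost without KO mouse 1, 3 or 5 of 4 weeks or mouse 2 of 7 weeks, Gstm3 without KO mouse 8 of 4 weeks or mouse 2 or 7 of 7 weeks, and Gstt1 and Ugt2b35 in 10 of 16 fits each. With the replicate number as a block, members higher and lower were 5 and 16 at 7 weeks, 5 and 11 in the interaction, 4 and 8 in WT, and 7 and 15 in KO mice, and the calls of Ugt8a at 7 weeks (adjusted p = 0.0569), Gstm3 in the interaction (0.0615), and Gstt1 (0.0579) and Ugt2b35 (0.0611) in KO mice were lost, while Gstm1 passed at 7 weeks (0.0489). Leaving out the 2 mice with the lowest array weights, KO mice 4 and 5 of 4 weeks, chosen after seeing the data, gave 5 and 17 at 7 weeks. Neither was a mouse of 7 weeks, so the differences at 7 weeks stayed the same. Only the shared estimate of the spread could change there. For age in KO mice that run lost Gstm1 (adjusted p = 0.0641) and added Gstm6 (0.0416), and in the interaction it added Gstt3 (0.0497). Signal over background could not be judged, since no detection call was used here.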
